A study of Homo sapiens with 6 samples.

Results

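The FAT3 locus on chromosome 11 was examined in NCI-H526 cells, a human small cell lung cancer line, as the peak intervals of 4 ChIP-seq lists that touch hg19 chr11:92000000-93000000. That 1 Mb held 452 of 271093 distinct intervals, made up of 66 of 49597 LSD1 peaks with inhibitor, 59 of 45188 LSD1 peaks with DMSO, 153 of 81619 H3K4me2 intervals and 174 of 94689 H3K4me1 intervals. The groups were LSD1 in cells given GSK2879552, an LSD1 inhibitor labelled GSK552 (1 µM for 24 hours), LSD1 in DMSO vehicle cells, and H3K4me2 and H3K4me1 in DMSO vehicle cells. Each had 1 library, so no difference below carries a test, and 95% Wilson intervals cover counting error only. Neighbouring peaks share a locus and are not independent of each other. Marks in inhibitor-treated cells and the input libraries were not analysed here. The locus was chosen by its measured density of H3K4me1 and H3K4me2 intervals, with LSD1 values known, so those densities are a description of the choice. How deeply the libraries were sequenced is unknown, and the fold (enrichment over the caller's background) and −log10 q of each peak are the authors' own values. Ranks are by score within a list, and a list background is the share over the whole list.

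LSD1 (KDM1A) is a demethylase whose substrates are mono- and dimethylated lysine 4 of histone H3. H3K4me1 is common at enhancers, and H3K4me2 occurs at enhancers and promoters. FAT3 encodes a very large atypical cadherin of the cell surface. In the mouse its counterpart shapes the dendrites of retinal amacrine neurons. The gene was taken as chr11:92085262-92629636, 544375 bp, which leaves marked sequence on both sides within the 1 Mb. The RefSeq gene on GRCh38.p14 is longer, at 671656 bp, so the start used here is that of one annotation. The next protein-coding genes in RefSeq order after FAT3 are MTNR1B, a melatonin receptor gene, and SLC36A4, an amino acid transporter gene. With no hg19 annotation, no interval was assigned to them.

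H3K4me1 covered more of the locus than any other list did. It took up 24.8% of the 1 Mb, against 2.19% of the genome and 3.72% of the rest of chromosome 11. H3K4me2 covered 8.98%, against 1.94% and 2.88%. LSD1 covered 3.93% with inhibitor and 4.12% with DMSO, against 0.900% and 0.911% over the genome. Among 3107 bins of 1 Mb, this one ranked 1 by H3K4me1 bp, 1 by number of H3K4me2 intervals and 3 by number of H3K4me1 intervals. It ranked 34 by H3K4me2 bp, 13 by number of inhibitor LSD1 peaks and 23 by number of DMSO LSD1 peaks. These ranks restate what the locus was chosen for.

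The marks differed in form. H3K4me1 intervals here were wider and stronger than their list, with a median width of 606.5 bp against 416 bp over the whole list and a median fold of 5.21 against 4.99. H3K4me2 intervals were narrower and weaker than theirs, with 323 bp against 411 bp and a median fold of 4.58 against 6.04. In the highest-scoring 10% of their own list were 46 of the 174 H3K4me1 intervals (26.4%, list background 10%) and 4 of the 153 H3K4me2 intervals (2.61%, list background 10.1%). In the highest 1% were 11 H3K4me1 intervals (6.32%, list background 1.01%) and no H3K4me2 interval (list background 1.01%). LSD1 had 9 peaks in its highest 10% with inhibitor (13.6%, list background 10.3%) and 9 with DMSO (15.3%, list background 10.5%). In its highest 1% it had 3 with inhibitor (4.55%, list background 1.02%) and 3 with DMSO (5.08%, list background 0.998%). In the highest 1%, H3K4me1 and both LSD1 lists thus had more than their list share and H3K4me2 had none. The sites at chr11:92949677-92950255 and chr11:92124576-92125894 were in the highest 1% of both LSD1 lists. The median LSD1 peak was weaker than its list, with a fold of 3.48 against 3.91 with inhibitor and 3.46 against 3.61 with DMSO. H3K4me1 intervals averaged 4.04 summits each against 1.85 over the list, and H3K4me2 intervals 1.77 against 2.18.

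The marks were densest before and within FAT3 and sparser after it. In the 85 kb before the FAT3 start, H3K4me1 covered 49.1% and H3K4me2 14.9%. Within the FAT3 span they covered 35.5% and 12.7%. In the 370 kb after FAT3 they covered 3.45% and 2.11%, where 2.19% and 1.94% of the genome was covered. That part was thus sparse only beside the rest of the locus. The 1 Mb before the locus held 50 H3K4me1 and 29 H3K4me2 intervals, of which 44 and 27 lay in the nearer 500 kb. The 1 Mb after it held 38 and 28. At the lower limit of the locus, an H3K4me1 interval at chr11:91999311-92002585 (fold 10.2) crossed the limit, and the next one outside ended at 91999177 (fold 5.25). At the upper limit the last H3K4me1 interval inside was chr11:92950264-92953266 (fold 11.9) and the next outside began at 93089421 (fold 4.99).

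The read background that a peak's fold and p-value imply was computed for each peak relative to its list. Its median at the locus was 1.37 times the list median for inhibitor LSD1, 1.26 for DMSO LSD1, 1.47 for H3K4me2 and 1.34 for H3K4me1. On the rest of chromosome 11 it was 1.40, 1.21, 1.37 and 1.39. The largest excess of the locus over the rest of its chromosome was 0.098, in H3K4me2. Locus and chromosome were both above the list median in every list. These values come from called peaks only. Copy number was not measured, and its part in the density of the locus was not tested.

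**Figure D1:**
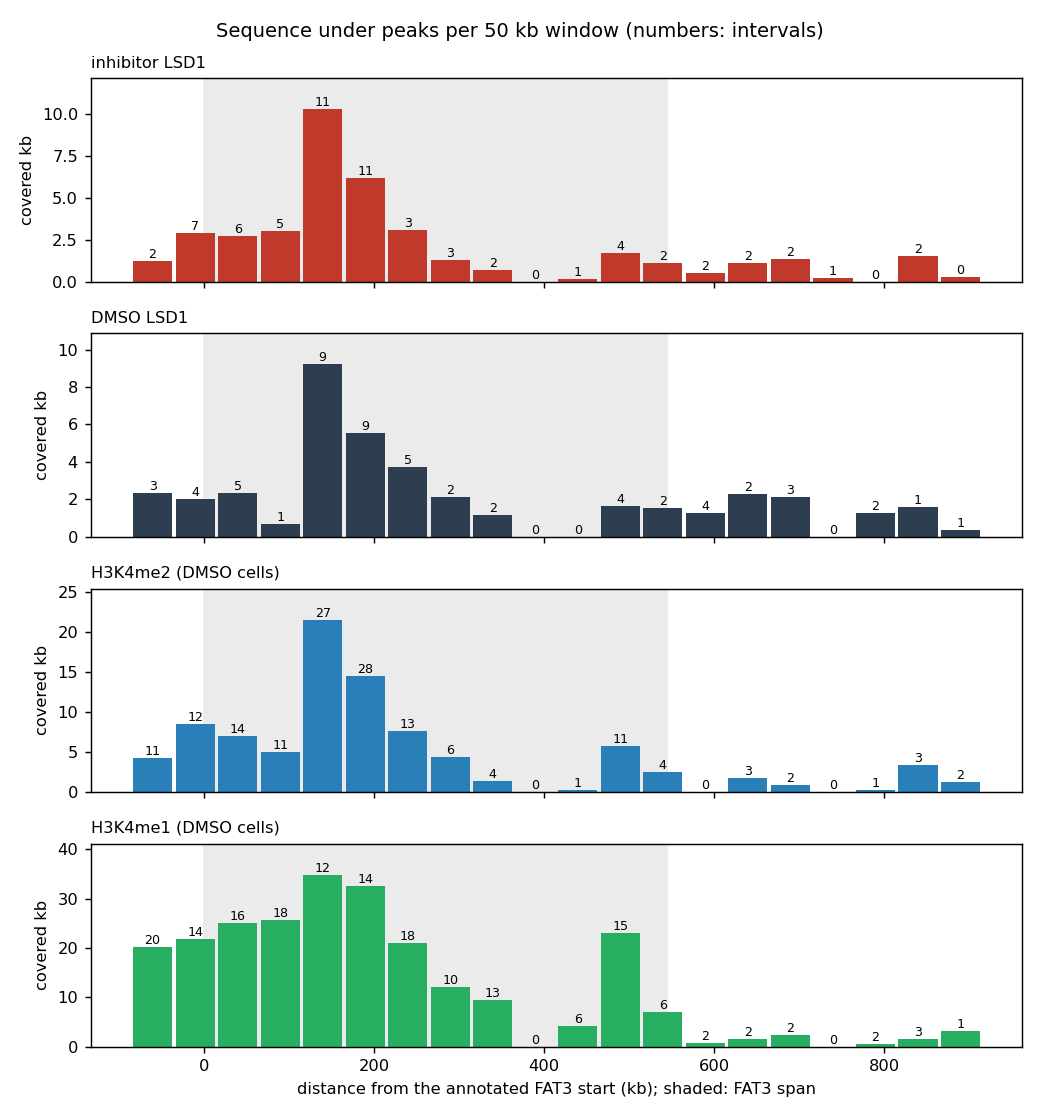
Sequence under peaks in kb (y axis) in each of 20 windows of 50 kb, by distance from the annotated FAT3 start (x axis, kb), for the 4 lists from inhibitor LSD1 at the top to H3K4me1 at the bottom; the number over a bar counts intervals by their midpoint and shading marks the FAT3 span. All lists peak in the 2 windows between 115 and 215 kb, and no list has an interval with its midpoint between 365 and 415 kb.

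By window of 50 kb, window 1 being chr11:92000001-92050000 and window 20 chr11:92950001-93000000, the intervals were gathered in the lower-numbered windows. The 5 fullest windows held 238 of the 451 intervals with a midpoint in the locus (52.8%). They were, by number of intervals, windows 6, 5, 3, 7 and 2, with 62, 59, 41, 39 and 37. For the window counts below, the list backgrounds of LSD1 peaks on H3K4me2 were 52.9% with inhibitor and 50.4% with DMSO. On H3K4me1 they were 39.5% and 41.5%.

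Windows 1 to 4 (chr11:92000001-92200000) run from upstream sequence across the FAT3 start. They held 20 inhibitor LSD1 peaks, of which 12 lay on H3K4me2 and 18 on H3K4me1, and 13 DMSO LSD1 peaks, of which 10 lay on H3K4me2 and 13 on H3K4me1. In window 1, both inhibitor peaks and all 3 DMSO peaks lay on both marks. In window 2, which holds the FAT3 start, 4 of 7 inhibitor peaks lay on H3K4me2 and all 7 on H3K4me1, and 3 of 4 DMSO peaks lay on H3K4me2 and all 4 on H3K4me1. In window 3 the counts were 2 and 5 of 6 inhibitor peaks and 3 and 5 of 5 DMSO peaks. In these windows the LSD1 peaks without H3K4me2 thus lay mostly on H3K4me1. Window 4 held 5 inhibitor peaks, of which 4 lay on H3K4me2 and 4 on H3K4me1, and 1 DMSO peak, which lay on both. It had the widest gap between the libraries in number of peaks. H3K4me1 covered 40.4%, 43.6%, 50.3% and 51.6% of windows 1 to 4, and H3K4me2 8.49%, 16.95%, 14.03% and 9.95%.

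Windows 5 and 6 (chr11:92200001-92300000) were the fullest. They held 22 inhibitor LSD1 peaks, 18 on H3K4me2 and 21 on H3K4me1, and 18 DMSO LSD1 peaks, 15 on H3K4me2 and 16 on H3K4me1. Each window had 11 inhibitor peaks and 9 DMSO peaks. In window 5, all 11 inhibitor peaks lay on both marks, as did 8 of the 9 DMSO peaks. In window 6, 7 of 11 inhibitor peaks lay on H3K4me2 and 10 on H3K4me1, and 7 and 8 of 9 DMSO peaks did. The LSD1 peaks of window 5 were thus nearly all on both marks in either library. H3K4me1 covered 69.8% of window 5 and 65.0% of window 6, and H3K4me2 43.0% and 28.9%. LSD1 covered 20.5% of window 5 with inhibitor and 18.4% with DMSO, and 12.4% and 11.1% of window 6. Of the 55 H3K4me2 intervals in the pair, 25 were overlapped by LSD1 with inhibitor and 23 with DMSO. The shares over the whole list were 40.8% and 35.4%, and on the rest of chromosome 11 they were 49.6% and 41.7%.

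In windows 7 to 9 (chr11:92300001-92450000) the marks covered less of each window than in the one before. They had 8 inhibitor LSD1 peaks, 6 on H3K4me2 and all 8 on H3K4me1, and 9 DMSO LSD1 peaks, 5 on H3K4me2 and all 9 on H3K4me1. The inhibitor peaks numbered 3, 3 and 2 by window, of which 3, 2 and 1 lay on H3K4me2. The DMSO peaks numbered 5, 2 and 2, of which 2, 2 and 1 did. H3K4me1 covered 42.0%, 24.4% and 19.1% of these windows in turn, and H3K4me2 15.1%, 8.72% and 2.77%.

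Window 10 held no interval of any list. The longest stretch with no interval in the 1 Mb, chr11:92446606-92503707 (57.1 kb), lay here, inside FAT3. In window 11 there were 6 H3K4me1 intervals and 1 H3K4me2 interval, with 1 inhibitor LSD1 peak on neither mark and no DMSO peak. Marks returned in windows 12 and 13 (chr11:92550001-92650000), which contain the FAT3 end. There, 6 inhibitor LSD1 peaks included 4 on H3K4me2 and 6 on H3K4me1, and 6 DMSO LSD1 peaks included 5 and 6. In window 12, 2 of 4 inhibitor peaks and 3 of 4 DMSO peaks lay on H3K4me2, and in window 13 both peaks of each library did. H3K4me1 covered 46.1% of window 12 and 14.03% of window 13.

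Windows 14 to 20 (chr11:92650001-93000000), after FAT3, were sparsely marked beside the FAT3 span and the sequence before it. They held 9 inhibitor LSD1 peaks, 4 on H3K4me2 and 3 on H3K4me1, and 13 DMSO LSD1 peaks, 4 on each mark. Neither mark was present at 5 of the 9 and at 8 of the 13. Window 14 had 2 inhibitor peaks, on neither mark, and 4 DMSO peaks, 1 of them on H3K4me1. In windows 15 and 16, 1 peak of each library lay on both marks, of 2 and 2 with inhibitor and 2 and 3 with DMSO. Window 17 had 1 inhibitor peak and window 18 had 2 DMSO peaks, on neither mark. In window 19 both inhibitor peaks lay on H3K4me2 and 1 on H3K4me1, while the DMSO peak lay on H3K4me2 only. Window 20 had 1 DMSO peak, on both marks. This peak, chr11:92949676-92950377, shared its site with the window 19 inhibitor peak chr11:92949677-92950255. The limit between the windows fell between their midpoints. In this stretch LSD1 therefore occurred as separate sites, some marked and some not. The marked sites among them included the highest-scoring H3K4me2 interval of the locus, chr11:92929733-92931911 in window 19. It had a fold of 16.7, a −log10 q of 54.2 and rank 1638 of its list. It was overlapped by an H3K4me1 interval of 255 bp and by LSD1 in both libraries. The LSD1 peaks there did not touch H3K4me1.

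H3K4me2 lay almost wholly inside H3K4me1. Of 153 H3K4me2 intervals, 152 were overlapped by H3K4me1 (99.3%, interval 96.4 to 99.9%), against 63.1% over the whole list and 73.1% on the rest of chromosome 11. The exception, chr11:92702449-92703201 (fold 10.3), lay after FAT3 and had no LSD1. In the FAT3 span all 118 were overlapped. Among the 39 bins of 1 Mb with at least 100 H3K4me2 intervals, this share was the highest, with a median over bins of 71.6%. The locus was chosen for its density of marks, and the more sequence H3K4me1 covers the more H3K4me2 intervals it can touch, so this rank is a description. By base pair, 94.1% of the H3K4me2 sequence was under H3K4me1, against 45.97% over the genome. With an overlap of 50% of both intervals, which few nested pairs of unequal width can reach, the share of intervals was 3.27%. In the other direction, 58 of 174 H3K4me1 intervals carried H3K4me2 (33.3%, 26.8 to 40.6%), against 47.4% over the list.

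The share of H3K4me1 with H3K4me2 differed by interval width. All 18 H3K4me1 intervals of 4 kb or more carried H3K4me2, against 99.7% of such intervals in the list. Among those under 500 bp, 4 of 76 carried it (5.26%, 2.07 to 12.8%), against 31.9%. Between 500 and 1000 bp it was 6 of 40 (15.0%, 7.06 to 29.1%), against 55.5%. Between 1000 and 2000 bp it was 13 of 21 (61.9%, 40.9 to 79.2%), against 82.5%, and between 2000 and 4000 bp 17 of 19 (89.5%, 68.6 to 97.1%), against 96%. H3K4me1 intervals under 1000 bp at this locus were therefore mostly free of H3K4me2, more so than intervals of those widths in the list.

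**Figure D2:**
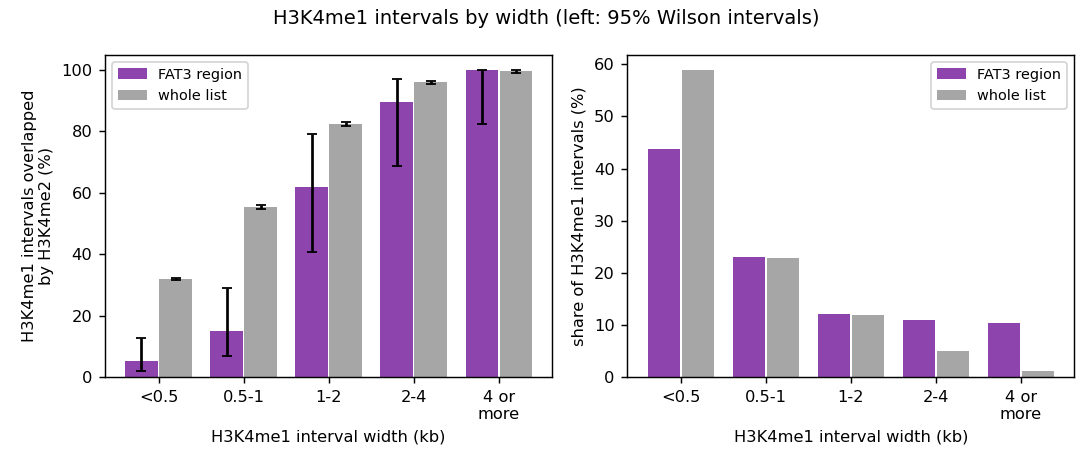
H3K4me1 intervals by width in kb (x axis): on the left the percent overlapped by H3K4me2, with 95% Wilson intervals, and on the right the percent of all H3K4me1 intervals in each width class, for the FAT3 region (purple, n = 174) and the whole list (grey, n = 94689). The region is below the list in every class up to 4 kb, at 5.26% against 31.9% in the narrowest, while intervals of 4 kb or more make up 10.3% of the region against 1.30% of the list.

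H3K4me1 intervals of 4 kb or more, called wide domains here, numbered 18, or 10.3% of the H3K4me1 intervals against a list background of 1.3%. Of these, 2 lay before FAT3 and 16 in its span. No H3K4me2 interval was that wide (list background 0.646%), and no LSD1 peak with inhibitor (0.0847%) or DMSO (0.166%). The domains had 88 of the 160 overlaps between H3K4me1 and H3K4me2, or 4.89 a domain against 3.69 over the list. They had 36 of the 66 overlaps between H3K4me1 and LSD1 with inhibitor, and 27 of 57 with DMSO. LSD1 was found in 17 of the 18 domains with inhibitor and in 15 with DMSO, where the list backgrounds were 86.5% and 82.2%. In intervals of 2000 to 4000 bp LSD1 was found in 12 of 19 with inhibitor (63.2%, list background 69.3%) and in 9 with DMSO (47.4%, list background 65.2%). Under 500 bp it was found in 2 of 76 with inhibitor (2.63%, list background 13.1%) and 3 with DMSO (3.95%, list background 13.6%). Between 500 and 1000 bp it was found in 5 of 40 with inhibitor (12.5%, list background 25.5%) and 7 with DMSO (17.5%, list background 25.5%), and between 1000 and 2000 bp in 11 of 21 with inhibitor (52.4%, list background 47.2%) and 10 with DMSO (47.6%, list background 45.7%). The share with LSD1 is higher in wider intervals over the list too.

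The widest domain, chr11:92228486-92239883, was 11398 bp long with a fold of 18.5 and ranked 91 among 94689 H3K4me1 intervals. It contained 33 H3K4me1 summits and was overlapped by 9 H3K4me2 intervals, 5 inhibitor LSD1 peaks and 3 DMSO LSD1 peaks. Just before it lay chr11:92213436-92223081 (fold 19.9, rank 145) and chr11:92223583-92228129 (fold 19.1, rank 168), with 4 and 2 inhibitor LSD1 peaks and 3 and 2 DMSO LSD1 peaks. These 3 neighbours were the highest-scoring H3K4me1 intervals of the locus. They sat about 130 to 155 kb into FAT3, and the widest H3K4me2 interval, chr11:92217631-92221573 (3943 bp, fold 9.06), lay inside the one that begins at 92213436. The domain chr11:92254255-92264373 (10119 bp, fold 10.1) had the most H3K4me2 intervals, 11, with 3 inhibitor and 2 DMSO LSD1 peaks. The domain chr11:92337632-92341824 (fold 10.0) had 3 H3K4me2 intervals and no LSD1 peak in either library.

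No interval of any list crossed the annotated FAT3 start. The nearest was an H3K4me1 domain, chr11:92079774-92084426 (fold 12.8, rank 1607), which ended 836 bp before it. The nearest H3K4me2 interval, chr11:92083785-92084351, ended 911 bp before it with a fold of 4.69 and rank 59217. The nearest inhibitor LSD1 peak, chr11:92079570-92079942, ended 5320 bp before the start. It was weak, with a fold of 3.10, a −log10 q of 1.36 and rank 46676 of 49597. It was absent from the DMSO list, whose nearest peak ended 20510 bp before the start. The strongest H3K4me2 interval of the FAT3 span lay 38622 bp past the start, at chr11:92123884-92126140 (fold 17.3, −log10 q 50.9, rank 2152). It sat in an H3K4me1 domain of 7990 bp, chr11:92119807-92127796 (fold 19.4, rank 202), and was overlapped by LSD1 in both libraries. Next in the span came the H3K4me2 intervals chr11:92228471-92230432 (fold 14.5) and chr11:92233526-92234882 (fold 13.2). LSD1 overlapped the interval of fold 14.5 in both libraries and that of fold 13.2 with inhibitor only. At the FAT3 end the nearest H3K4me2 interval was weak, with a fold of 3.00, and lay 10293 bp inside the gene.

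LSD1 at FAT3 was found mainly where both marks were. With inhibitor, 56 of 66 peaks lay on H3K4me1 (84.8%, 74.3 to 91.6%; list background 39.5%) and 44 on H3K4me2 (66.7%, 54.7 to 76.8%; 52.9%). With DMSO, 48 of 59 lay on H3K4me1 (81.4%, 69.6 to 89.3%; 41.5%) and 39 on H3K4me2 (66.1%, 53.4 to 76.9%; 50.4%). Both marks were present at 43 inhibitor peaks (65.2%, background 30%) and 38 DMSO peaks (64.4%, background 31.7%). H3K4me2 without H3K4me1 was present at 1 peak in each list, against backgrounds of 22.9% and 18.7%. H3K4me1 without H3K4me2 was present at 13 inhibitor peaks (19.7%, background 9.49%) and 10 DMSO peaks (16.9%, background 9.84%). Neither mark was present at 9 inhibitor peaks (13.6%, background 37.6%) and 10 DMSO peaks (16.9%, background 39.8%). The large share of the locus under H3K4me1 goes with these values, and its part in them was not tested. When the overlap had to reach 50% of both intervals, LSD1 lay on H3K4me1 at 3.03% of inhibitor peaks and 10.2% of DMSO peaks, and on H3K4me2 at 18.2% and 20.3%.

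**Figure D3:**
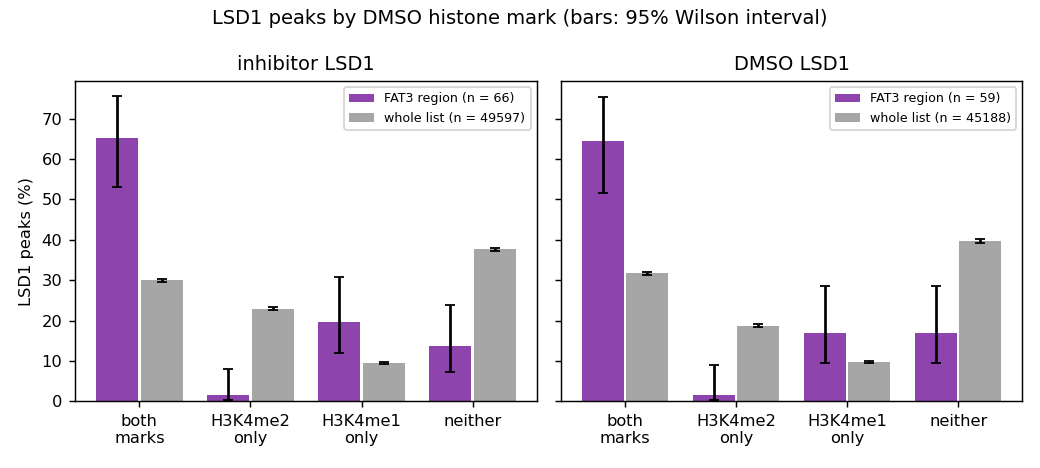
Percent of LSD1 peaks (y axis) with both marks, H3K4me2 only, H3K4me1 only or neither (x axis), with inhibitor on the left and DMSO on the right, for the FAT3 region (purple) and the whole list (grey); error bars are 95% Wilson intervals. Both marks are found at 65.2% of the region's inhibitor peaks and 64.4% of its DMSO peaks, against 30% and 31.7% of the lists.

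The marks at LSD1 peaks differed along the locus. In the FAT3 span, neither mark was found at 4 of 47 inhibitor peaks (8.51%) and 2 of 38 DMSO peaks (5.26%), and before FAT3 at none of 9 and none of 7. After FAT3 it was 5 of 10 (50%) and 8 of 14 (57.1%), where the list backgrounds were 37.6% and 39.8%. In the span the middle of an LSD1 peak lay a median of 152 bp with inhibitor and 119 bp with DMSO from the nearest H3K4me1 summit, against 976 and 1018 bp over the lists. The distance to the nearest H3K4me2 summit was 184 and 206.5 bp, against 369 and 482 bp. After FAT3 the medians were 868 bp with inhibitor and 3934 bp with DMSO to H3K4me1. To H3K4me2 they were 3585 and 16475.5 bp there. Mark intervals were also denser in the span than over the genome, and the part of that density in these distances was not tested.

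Seen from the marks, the share overlapped by LSD1 was near the list background. LSD1 overlapped 60 of 153 H3K4me2 intervals with inhibitor (39.2%, 31.8 to 47.1%; list background 40.8%) and 57 with DMSO (37.3%, 29.99 to 45.1%; 35.4%). It overlapped 47 of 174 H3K4me1 intervals with inhibitor (27.01%, 20.96 to 34.1%; 23.8%) and 44 with DMSO (25.3%, 19.4 to 32.2%; 23.7%). On the rest of chromosome 11, H3K4me2 was overlapped more often, in 49.6% of cases with inhibitor and 41.7% with DMSO. Of the H3K4me2 intervals at the locus, 17 were overlapped with inhibitor only and 14 with DMSO only (11.1% and 9.15%), against 14.3% and 8.95% over the list. For H3K4me1 the numbers were 12 and 9 (6.90% and 5.17%), against 7.85% and 7.74%. The lists as a whole had more H3K4me2 intervals reached with inhibitor only than with DMSO only, by 5.39 points, and at the locus the gap was 1.96 points. Among the 50% of intervals with the highest scores, LSD1 lay on 23 of 48 H3K4me2 intervals with inhibitor (47.9%) and 26 with DMSO (54.2%). The order of the libraries was thus opposite, but only a few intervals set it in either case.

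The share of LSD1 peaks found with both inhibitor and DMSO was near that of the lists. Of 66 inhibitor peaks, 41 were overlapped by a DMSO peak (62.1%, 50.1 to 72.9%; list background 58.1%), and of 59 DMSO peaks, 41 by an inhibitor peak (69.5%, 56.9 to 79.7%; 63.2%). By base pair, 47.5% of the inhibitor LSD1 sequence was under DMSO peaks and 45.4% of the DMSO sequence under inhibitor peaks. When the peak's midpoint had to be covered, the shares were 42.4% and 49.2%, and at a reciprocal overlap of 50% they were 27.3% and 30.5%. How much LSD1 is called shared thus depends on the overlap asked for. By zone, the peaks found in the other library were 26 of 47 inhibitor and 26 of 38 DMSO peaks in the FAT3 span, and 9 of 10 and 9 of 14 after it.

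In the 41 pairs the fold was the higher one about as often with inhibitor as with DMSO. The fold was higher with inhibitor in 21 of 41 pairs (51.2%, 36.5 to 65.7%), against 65.9% of 28043 pairs over the lists. The −log10 q was higher with inhibitor in 28 (68.3%, 53.0 to 80.4%), against 75.6%, so the 2 measures differed in how often the inhibitor peak was the higher one. Median folds were 3.77 with inhibitor and 3.66 with DMSO, where all pairs had 4.13 and 3.76. Median −log10 q was 3.62 with inhibitor and 2.52 with DMSO, where all pairs had 3.45 and 2.32. The peaks were wider with inhibitor in 18 pairs (43.9%), against 45.5%. Both measures depend on the depth of each library and its control, which is unknown. The values therefore stand side by side and cannot show whether binding changed or stayed the same.

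**Figure D4:**
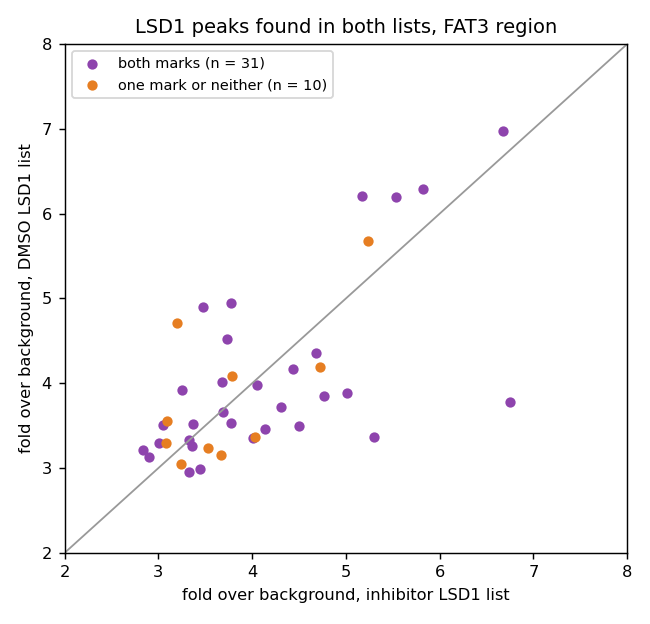
Fold over background in the inhibitor LSD1 list (x axis) and in the DMSO LSD1 list (y axis) of the 41 LSD1 peaks found in both at the FAT3 region, with peaks on both marks (31, purple) and the others (10, orange); the line marks equal folds. Of the 41 points, 21 have the higher fold with inhibitor, and the point farthest to the right is the site at 355 kb, with a fold of 6.75 with inhibitor and 3.78 with DMSO.

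Single sites are given here as examples, named for their score, their place or a difference seen between the libraries. They do not show how far sites differed in general. The site that scored highest with inhibitor, chr11:92440295-92440697, had a fold of 6.75 and a −log10 q of 18.1 with inhibitor, against 3.78 and 5.06 with DMSO. It carried both marks, lay 355 kb into FAT3 and was the last LSD1 peak before the 57.1 kb stretch with no interval. At chr11:92643192-92643803, 13556 bp past the FAT3 end, the fold was 5.30 and the −log10 q 7.75 with inhibitor, against 3.36 and 2.13 with DMSO. At chr11:92563609-92564208 they were 4.50 and 7.78 with inhibitor, against 3.50 and 2.52 with DMSO. These 3 sites carried both marks and had the higher fold and −log10 q with inhibitor. In the other direction, chr11:92264283-92264865 had a fold of 3.77 and a −log10 q of 5.73 with inhibitor, and the DMSO peak there, chr11:92264211-92265150, had 4.94 and 7.36. The inhibitor peak chr11:92118698-92119261 had 3.20 and 1.76, against 4.71 and 4.29 with DMSO. At chr11:92037074-92037738 they were 3.48 and 3.63 with inhibitor, against 4.90 and 5.15 with DMSO. Of all 41 pairs, 21 had the higher fold with inhibitor.

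At the other sites among the 5 highest-scoring of the inhibitor list, the fold was higher with DMSO while the −log10 q went either way. The site in the H3K4me2 interval 38622 bp into FAT3 had a fold of 6.68 and a −log10 q of 13.97 with inhibitor, against 6.98 and 12.2 with DMSO. The site at chr11:92949677-92950255 had 5.82 and 14.4 with inhibitor, against 6.29 and 12.4 with DMSO. The site at chr11:92767232-92768401 had 5.53 and 10.8 with inhibitor, against 6.19 and 12.6 with DMSO. These last 2 lay 320 and 138 kb past the FAT3 end and carried both marks. In the span, chr11:92257464-92257880 had 5.17 and 8.59 with inhibitor, against 6.21 and 9.02 for a DMSO peak of 1057 bp. The highest-scoring site on neither mark, chr11:92737441-92738052, had 5.23 and 7.59 with inhibitor, against 5.68 and 6.42 with DMSO.

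Peaks of one list alone were weak. The 25 inhibitor-only peaks had folds from 2.67 to 4.14 and a median place at the top 81.8% of their list, and the 18 DMSO-only peaks had folds from 2.97 to 3.54 and a median place at 76.1%. Over the whole lists such peaks had median places of 63.0% and 67.0%. The highest-scoring inhibitor-only peak, chr11:92840474-92840691 (fold 4.14), lay after FAT3 on neither mark. The next, chr11:92188147-92188757 (fold 4.12), lay on both marks, 103 kb into the gene. The highest-scoring DMSO-only peak, chr11:92216979-92219061 (fold 3.33), was 2083 bp wide and lay on both marks. Of the inhibitor-only peaks, 12 lay on H3K4me2 and 20 on H3K4me1 (48.0% and 80.0%; list backgrounds 40% and 27.8%). Of the DMSO-only peaks, 7 and 12 did (38.9% and 66.7%; 29.2% and 29%). Of the 41 shared peaks, 32 lay on H3K4me2 and 36 on H3K4me1 in both lists (78.0% and 87.8%), against 62.3% and 47.9% for inhibitor and 62.8% and 48.9% for DMSO.

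When LSD1 peaks were joined over gaps of up to 12.5 kb, the locus held 24 clusters with inhibitor and 25 with DMSO, of which 16 and 15 were single peaks. The largest spanned chr11:92181472-92291288 with inhibitor (26 peaks over 109.8 kb) and chr11:92198125-92317450 with DMSO (22 peaks over 119.3 kb). Each ranked 3 by number of peaks in its list. The inhibitor cluster began 16.7 kb earlier and ended 26.2 kb earlier. It began with an inhibitor-only peak, chr11:92181472-92182105 (−log10 q 1.83). DMSO-only peaks at chr11:92301305-92301685 and chr11:92308364-92308787 (−log10 q 1.38 and 1.51) carried the DMSO cluster past the inhibitor end. These limits thus rest in part on weak peaks of one list and on the gap used for joining. Of the 26 peaks in the inhibitor cluster, 13 were overlapped by a DMSO peak (list background 58.1%). Of the 22 DMSO peaks, 14 were overlapped by an inhibitor peak (list background 63.2%). Next came chr11:92053220-92079942 with inhibitor (7 peaks, before FAT3), against chr11:92053208-92064752 with DMSO (4 peaks).

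**Figure D5:**
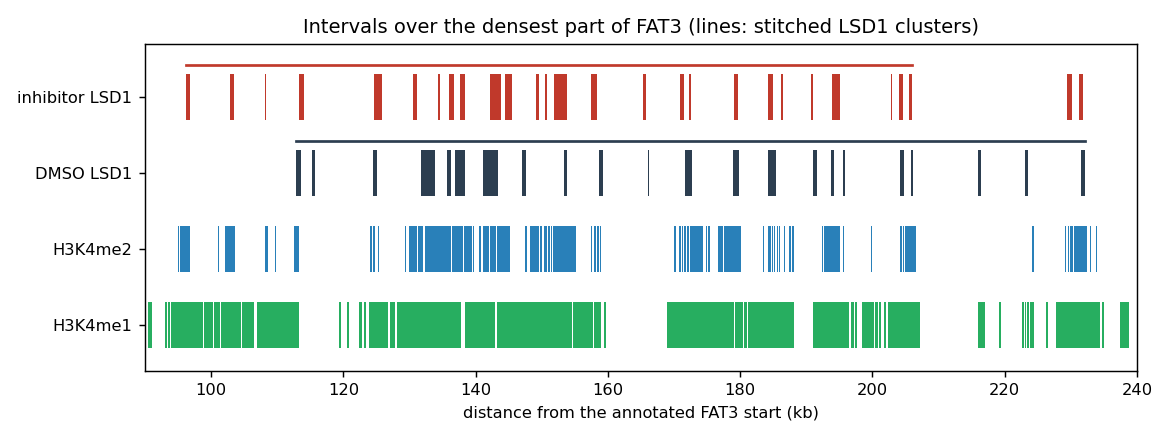
Intervals of the 4 lists (rows, inhibitor LSD1 at the top) between 90 and 240 kb from the annotated FAT3 start (x axis, kb), drawn to scale; lines over the LSD1 rows mark the stitched clusters of 26 inhibitor and 22 DMSO peaks. Every H3K4me2 interval in the inhibitor cluster touches an H3K4me1 block, as do 25 of its 26 LSD1 peaks and 20 of the 22 in the DMSO cluster.

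The FAT3 cluster was compared with the LSD1 cluster that held the most peaks, at chr20:55946215-56084082 with inhibitor (46 peaks) and chr20:55946359-56084668 with DMSO (45 peaks). H3K4me1 covered 74.98% of the inhibitor cluster at FAT3 and 76.7% of that on chromosome 20, and H3K4me2 35.7% and 38.8%. In the DMSO clusters H3K4me1 covered 63.3% at FAT3 and 76.7% on chromosome 20, and H3K4me2 33.0% and 38.7%. The marks were thus closer between the inhibitor clusters than between the DMSO clusters. The mark lists were the same in both comparisons, which differ only in the cluster limits. LSD1 was sparser at FAT3, with 23.7 against 33.4 peaks per 100 kb and 16.9% against 39.1% of the sequence covered. With DMSO it was 18.4 against 32.5 peaks per 100 kb and 14.2% against 36.4% covered. H3K4me2 intervals were narrower at FAT3, with a median of 312 bp against 448 bp in the inhibitor clusters, and more frequent, with 57.4 against 44.2 per 100 kb. LSD1 peaks lay on H3K4me2 more often at FAT3, in 84.6% against 63.0% of cases with inhibitor and 77.3% against 60% with DMSO. On H3K4me1 the clusters were closer, at 96.2% against 91.3% with inhibitor and 90.9% against 88.9% with DMSO. H3K4me1 overlapped 100% of the H3K4me2 intervals in either FAT3 cluster and 98.4% in either cluster on chromosome 20. The nesting of H3K4me2 in H3K4me1 was thus not particular to FAT3. No test was made between the clusters.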

How the data were processed

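ChIP-seq peak lists of 4 NCI-H526 libraries were used, with groups from the sample descriptions. BWA, Picard and MACS2 2.0 are named, with hg19, in the submitters' processing notes; which control was used and how duplicates were handled is unknown here, as is depth. Files have no header and were read in MACS2's layout. The deposited score is 10 times the deposited −log10 q; the deposited fold is a ratio over the caller's background, and the deposited −log10 p belongs to each peak. LSD1 lists have broad-peak and histone lists narrow-peak layout, which affects widths and overlaps, and LSD1 lists reach weaker peaks.

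Rows sharing an interval were merged (178083 H3K4me2 rows to 81619, 175135 H3K4me1 rows to 94689), keeping the highest-scoring summit. Overlap meant at least 1 bp. Windows took intervals by midpoint. The implied background was solved from fold and p by a Poisson formula with a pseudocount of 1, with list medians from 1 in 10 intervals. Named peaks were, per list, the 5 highest-scoring, the widest, those nearest the gene's ends, and leading shared, one-list, both-mark and unmarked LSD1 peaks; wide domains, the emptiest stretch and sites that differed between libraries were picked once values were known. The locus and measures were chosen with earlier results of these data known. On simulated data the overlap search recovered 809 of 809 planted overlaps. FAT3's span is that of the locus definition. Python 3.11.15, pandas 2.3.3 and statsmodels 0.14.6 were used. No sequence is printed, since no hg19 genome was used here.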

Additional observations from a re-analysis of the deposited data

How the results depend on the processing

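No paired analysis was possible because every group is a single library. Cutting the inhibitor list to the length of the DMSO list, chosen after the data were seen, left 7 of 7 values within their counting intervals (counts within 1.5 times), as did counting intervals by midpoint in 4 of 4. The cut did turn the order of the libraries, by few intervals. LSD1 peaks then numbered 57 with inhibitor and 59 with DMSO. They overlapped 54 H3K4me2 intervals with inhibitor against 57 with DMSO, and 43 H3K4me1 intervals against 44. In the full lists each of these counts was higher with inhibitor. Windows moved by 25 kb kept the share of the 5 fullest windows within its interval; by covered bp that share was 58.0%. Where a value moved, the cause was not tested. With depth unknown, a weak site seen in 1 list may have fallen under the threshold in the other.

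A reciprocal overlap of 50% asks for intervals of like width and lowered all 12 shares: 27.3% of inhibitor LSD1 in DMSO LSD1, 30.5% of the reverse, inhibitor LSD1 on H3K4me2 18.2% and on H3K4me1 3.03%, DMSO LSD1 20.3% and 10.2%, H3K4me2 with inhibitor LSD1 7.84% and with DMSO LSD1 7.84%, H3K4me2 in H3K4me1 3.27%, H3K4me1 with inhibitor LSD1 1.15%, with DMSO LSD1 3.45% and with H3K4me2 2.87%. By midpoints, inhibitor LSD1 in DMSO LSD1 was 42.4% and the reverse 49.2%, inhibitor LSD1 on H3K4me2 54.5% and on H3K4me1 72.7%, DMSO LSD1 on H3K4me2 49.2%, H3K4me2 with inhibitor LSD1 20.3%, with DMSO LSD1 20.9% and in H3K4me1 96.1%, and H3K4me1 with inhibitor LSD1 6.90%, with DMSO LSD1 8.62% and with H3K4me2 20.1%.

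With the 50% of intervals of highest score, 30 inhibitor and 30 DMSO LSD1 peaks, 48 H3K4me2 and 112 H3K4me1 intervals were left. Inhibitor LSD1 in DMSO LSD1 was then 73.3%, H3K4me2 with inhibitor LSD1 47.9%, with DMSO LSD1 54.2% and in H3K4me1 95.8%. The order of the LSD1 libraries on H3K4me2 was opposite to that of the full lists, by few intervals. It was 23 with inhibitor and 26 with DMSO of 48, against 60 and 57 of 153. At a −log10 q of at least 2, LSD1 peaks numbered 41 with inhibitor and 27 with DMSO; DMSO LSD1 in inhibitor LSD1 was 85.2% and on H3K4me2 85.2%, H3K4me2 with inhibitor LSD1 27.5% and with DMSO LSD1 24.2%, and H3K4me1 19.5% and 16.7%. In the FAT3 span alone, DMSO LSD1 on H3K4me1 was 94.7% and H3K4me2 in H3K4me1 100%. As deposited rows, H3K4me2 numbered 271 and H3K4me1 703.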
